A study of Mus musculus with 46 samples.

Results

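The comparison described here is that of the lowest acrylamide concentration, 0.001 µg/ml in the drinking water for 1 month, with untreated controls of the same time. It holds 6 of the series' 46 arrays, chosen by their titles: replicates 1 to 3 of 0.001 µg/ml at 1 month and replicates 1 to 3 of the control at 1 month. All 6 were from male Swiss mice aged 3 to 6 months, and the control mice were given no acrylamide (0 µg/ml). The labels give no genotype or transgene. Each array carries total RNA from the testis of 1 animal on an Illumina mouse bead array with 25697 probes, so the replicates are individual testes. A whole testis mixes germ cells of all stages with somatic cells, and in such bulk RNA fewer cells of a type and less RNA per cell cannot be told apart.

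Acrylamide is an industrial monomer that also forms when starchy food is heated. CYP2E1 oxidises it to glycidamide, which binds DNA, and both molecules react with thiols and are removed by glutathione conjugation. In the rodent testis high doses are known to harm late germ cells, in which the genome is packed first by transition proteins and then by protamines, and to act on kinesin motors and on Leydig cells. The question asked of these 6 arrays was whether the lowest concentration, after the shortest exposure, altered the levels of these genes.

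One array had to be set apart before any result was read. Replicate 3 of 0.001 µg/ml correlated with the remaining 45 arrays at 0.844 on average across all 25697 probes, whereas these averages for the other 5 arrays of the comparison lay between 0.982 and 0.983. The root mean square difference on the log2 scale between replicates 1 and 2 of 0.001 µg/ml was 0.125, and those among the 3 controls were 0.133, 0.136 and 0.16. Replicates 1 and 2 differed from the controls by 0.128 to 0.161, a range that overlaps that of the controls among themselves. Replicate 3 differed from each of the other 5 arrays by 0.809 to 0.82. Within-group pairs of the other 45 arrays, 38 in all, ranged from 0.125 to 0.323 with a median of 0.164. Each result below is therefore given with and without replicate 3.

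**Figure D1:**
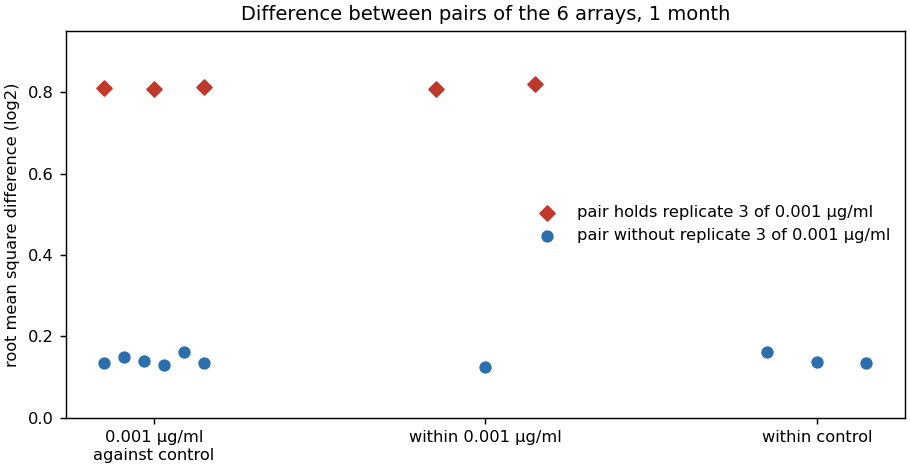
Root mean square difference in log2 value over the 15418 probes tested (vertical axis) for the 15 pairs of the 6 arrays, by kind of pair. Red diamonds are the 5 pairs that hold replicate 3 of 0.001 µg/ml, at 0.809 to 0.82, and blue circles are the other 10 pairs, at 0.125 to 0.161.

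The departure of replicate 3 ran through most of the transcriptome and in both directions. Of 15418 probes tested, 4373 (28.4%) were higher in replicate 3 than in any of the other 45 arrays and 4328 (28.1%) were lower than in any of them, 56.4% in all. The same share for each of the other 45 arrays ran from 0.986% to 9.79%, with a median of 2.61%. It grew with the level of the gene: when the probes were divided into 5 equal classes of level, in the dimmest class 23.5% were above and 3.47% below, and in the brightest class 23.2% were above and 50.1% below. The non-normalized intensities of this array rank its probes as the processed values do (rank correlation 0.99996), so the departure is in both deposited tables. Its median intensity was 188.5, against 181.7 to 214.3 in the other 4 of the 6 arrays whose intensities were used, and its upper quartile was 375.1, against 462.4 to 541.0.

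**Figure D2:**
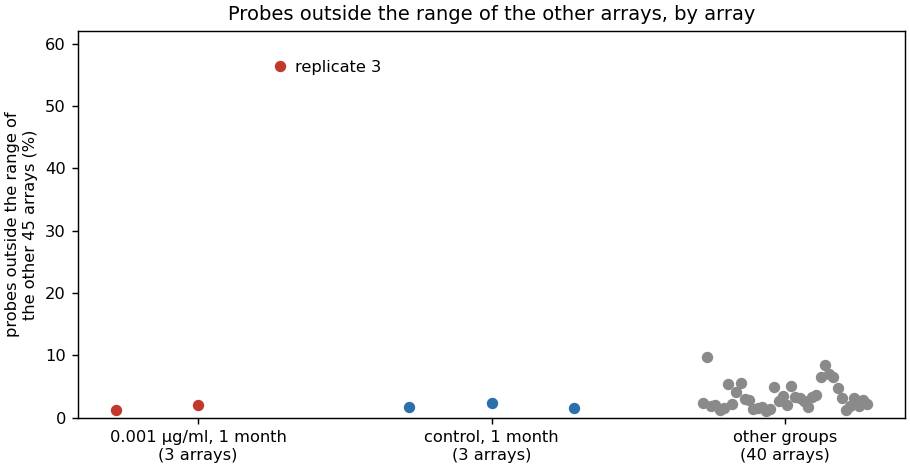
Percentage of the 15418 probes tested whose log2 value lies above or below all of the other 45 arrays (vertical axis), 1 point per array, for the 3 arrays of 0.001 µg/ml at 1 month, the 3 controls at 1 month and the other 40 arrays. Replicate 3 of 0.001 µg/ml is at 56.4% and no other array is above 9.79%.

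The genes farthest above the range included some of spermatids and of signalling. Reep6, which encodes an endoplasmic reticulum shaping protein, was at 12.76 in replicate 3 and between 8.34 and 8.87 in the other 45 arrays. Sox30, a transcription factor gene that spermatids need, was at 11.85, against 7.96 to 8.27. Cchcr1 stood at 13.07, against 8.05 to 9.83, and both probes of Git1, which encodes a scaffold of Arf and Rac signalling, were above by 3.18 and 2.92. The others of the 12 farthest above were Slc6a21, Lipe, Gnas, Pkig, Pabpc1, Atp9a and Mtx1. Farthest below were genes that were bright everywhere else, as this ranking requires, since the lowest value of replicate 3 was 7.55. Wbp11, a splicing gene, was at 8.98 in replicate 3, against 12.48 to 12.98. Tdrd6, which encodes a protein of the chromatoid body of spermatids, was at 9.95, against 13.21 to 13.84. Fth1, the ferritin heavy chain gene, was at 9.87, against 13.02 to 13.90, and the proteasome subunit gene Psma3 was at 8.91, against 11.94 to 12.75. Gde1, Tctex1d2, Ptpdc1, Cabyr, Hnrnpm, Cd81, Bcap29 and Matr3 complete the 12 farthest below. These are single probes: other probes of Cabyr and Gde1 lay above the range in replicate 3, and another probe of Mtx1 lay below it.

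Different probes of one gene often disagreed in replicate 3. Of 2702 genes with at least 2 probes tested, 381 had all probes above the range, 239 had all below, and 498 had probes on both sides. Pabpc1, the cytoplasmic poly(A)-binding protein gene, had 1 probe at 10.53, below the 11.81 to 13.51 of the other arrays, and 2 probes at 12.25 and 12.63, above their 8.61 to 9.42 and 9.02 to 10.32. Among 1796 genes with exactly 2 probes, the difference of replicate 3 from replicates 1 and 2 had opposite signs at the 2 probes in 697 (38.8%). Its correlation between the probes was 0.28 across these genes, which share the array and are not independent. For the difference of replicates 1 and 2 from control, that correlation was 0.429. The share of opposite signs was not counted for any other array. Cell type markers did not move as blocks either. Insl3, the Leydig cell hormone gene, was at 14.13 in replicate 3 (other arrays 11.82 to 13.58), while Star, which brings cholesterol to the steroid enzymes of the same cells, was at 7.78 (8.04 to 8.65). In Sertoli cells Clu was at 13.53 (12.72 to 13.40), while Wt1 was at 7.94 (9.44 to 10.26) and Rhox5 at 7.80 (9.05 to 10.00). Prm1, the protamine gene, lay inside the range of the other arrays at 14.11. RefSeq promoters (assembly GRCm38.p6) matched 81.4% of the genes. Their median GC content was 60.6% for genes above the range, 60.5% for genes below it and 58.3% for genes inside it, and across 8684 genes the correlation of GC content with the difference was -0.002.

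With all 6 arrays, limma called 0 of 15418 probes at an adjusted p under 0.05, and the smallest adjusted p was 0.15. At an unadjusted p under 0.05 there were 3966 probes (25.7%), 2167 with the higher mean in 0.001 µg/ml (14.1%) and 1799 with the lower (11.7%). Of these, 3749 (94.5%) were probes at which replicate 3 lay outside the range of the other 45 arrays. Without replicate 3, the same test called 0 of 15418 probes, the smallest adjusted p was 1, and 261 probes had an unadjusted p under 0.05 (1.69%), 139 higher (0.902%) and 122 lower (0.791%). The lists with and without replicate 3 shared 127 probes, 3.2% of the first and 48.7% of the second. Leaving out replicate 1 or replicate 2 of 0.001 µg/ml in place of replicate 3 gave 4631 and 5019 called probes. Of the 4077 called in both of these fits, replicate 3 was outside the range of the other arrays at 98.7%.

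The estimated differences were small at most probes, by intervals for single probes that are not adjusted for the 15418 tested. A larger difference could still go uncalled, as did that of Abhd16a (2.92 ± 0.71 without replicate 3, described below). Without replicate 3, the median absolute log2 difference between 0.001 µg/ml and control was 0.0394, with a median standard error of 0.082. The 95% interval of the difference lay within 0.5 log2 units of 0 for 14499 probes (94.0%) and within 1 log2 unit for 15340 (99.5%). With replicate 3 kept in, the share within 0.5 log2 units was 70.0%. Without replicate 3 the 2 arrays of 0.001 µg/ml were above all 3 controls at 1525 probes (9.89%) and below all 3 at 1654 (10.7%), and with all 6 arrays the groups did not overlap at 692 (4.49%) and 773 (5.01%).

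The genes with the smallest p, named by rule, were few and their differences mostly under 0.6 log2 units. Tex43, a testis-expressed gene on chromosome 18, was at 12.83, 12.80 and 12.94 in the 3 testes given 0.001 µg/ml, against 12.53, 12.42 and 12.46 in the 3 control testes. All 3 treated testes were above all 3 controls, replicate 3 included. The difference was 0.39 ± 0.08 (SE) with replicate 3 and 0.35 ± 0.09 without it, with adjusted p = 0.15 and 1. Fam20b (chromosome 1), which encodes a kinase that phosphorylates the xylose of the proteoglycan linker, was at 9.02, 8.86 and 8.97 in 0.001 µg/ml, against 8.65, 8.64 and 8.55 in control. Here too the groups did not overlap, and the differences were 0.34 ± 0.08 and 0.33 ± 0.09 (adjusted p = 0.15 and 1). Ctdnep1 (chromosome 11), which encodes a phosphatase of the nuclear envelope that acts on lipin, was at 9.82, 9.65 and 10.27 in 0.001 µg/ml, against 9.42, 9.46 and 9.54 in control. Its difference was 0.44 ± 0.09 with replicate 3 and 0.26 ± 0.07 without it (adjusted p = 0.15 and 1), so that part of the larger value came from 1 array.

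On the lower side, Aars2 (chromosome 17), the mitochondrial alanyl-tRNA synthetase gene, was at 7.80, 7.73 and 7.80 in 0.001 µg/ml, against 8.21, 8.14 and 8.35 in control. The difference was -0.45 ± 0.11 with replicate 3 and -0.47 ± 0.13 without it (adjusted p = 0.15 and 1). Hmgxb3 (chromosome 18), an HMG-box gene, was at 9.54, 9.74 and 9.55 in 0.001 µg/ml, against 10.39, 9.98 and 10.18 in control, which gave -0.58 ± 0.15 and -0.55 ± 0.17. Eef1g (chromosome 19), which encodes the gamma subunit of translation elongation factor 1, was at 13.82, 13.81 and 13.60 in 0.001 µg/ml, against 14.23, 13.90 and 14.10 in control, which gave -0.34 ± 0.07 and -0.26 ± 0.08. In each of these genes the 3 treated testes were below all 3 controls, yet no adjusted p was under 0.15. Replicate 3 lay at or between replicates 1 and 2 in Aars2 and Hmgxb3, and below both in Eef1g, at the low end of the other 45 arrays (13.60 to 14.23). One probe of the zinc finger gene Zfp446 (chromosome 7) also had all treated testes below all controls, with 7.88, 7.68 and 7.76 in 0.001 µg/ml, against 8.13, 7.99 and 8.07 in control, and a difference of -0.29 both with and without replicate 3. The other Zfp446 probe tested was at 8.06, 8.26 and 7.88 in 0.001 µg/ml, against 8.19, 8.15 and 8.22 in control, so its groups overlapped, and its difference was -0.03 ± 0.06 without replicate 3.

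For other named genes the difference was larger with replicate 3 than without it. Cux1, a homeobox transcription factor gene, was at 8.17, 8.39 and 9.92 in 0.001 µg/ml, against 8.05, 7.75 and 7.77 in control, and its difference was 0.97 ± 0.23 with replicate 3 and 0.42 ± 0.12 without it. The other 4 probes of Cux1 gave 0.08 to 0.25 without replicate 3. Ttll13, a tubulin polyglutamylase gene, gave 0.60 ± 0.13 and 0.32 ± 0.09, but its other probe tested gave 0.46 ± 0.23 and -0.07 ± 0.13. Reln, the gene of the matrix glycoprotein reelin, gave -0.49 ± 0.11 and -0.25 ± 0.08. Ncoa4, which encodes the receptor that carries ferritin to autophagy, gave -0.76 ± 0.19 and -0.57 ± 0.20. The other genes named with all arrays were Tssc4, Ppargc1b, Klkb1, Mapk10 and Tenm3 with positive differences (0.25 to 0.42 with replicate 3) and Alox12, Fez2, Pank2 and Lexm with negative ones (-0.45 to -0.31). Of these, Klkb1 gave nearly the same without replicate 3 (0.26 ± 0.08), and the other probe of Tssc4 gave -0.04 ± 0.05 without it. In Pcca, the gene of the propionyl-CoA carboxylase alpha chain, replicate 3 turned the sign: it was at 9.63, 9.75 and 8.18 in 0.001 µg/ml, against 9.55, 9.21 and 9.39 in control. Cd59b, a complement regulator gene, did the same at both of its probes, and the small heat shock gene Hspb7 and Mcrs1 did so in the other direction.

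**Figure D3:**
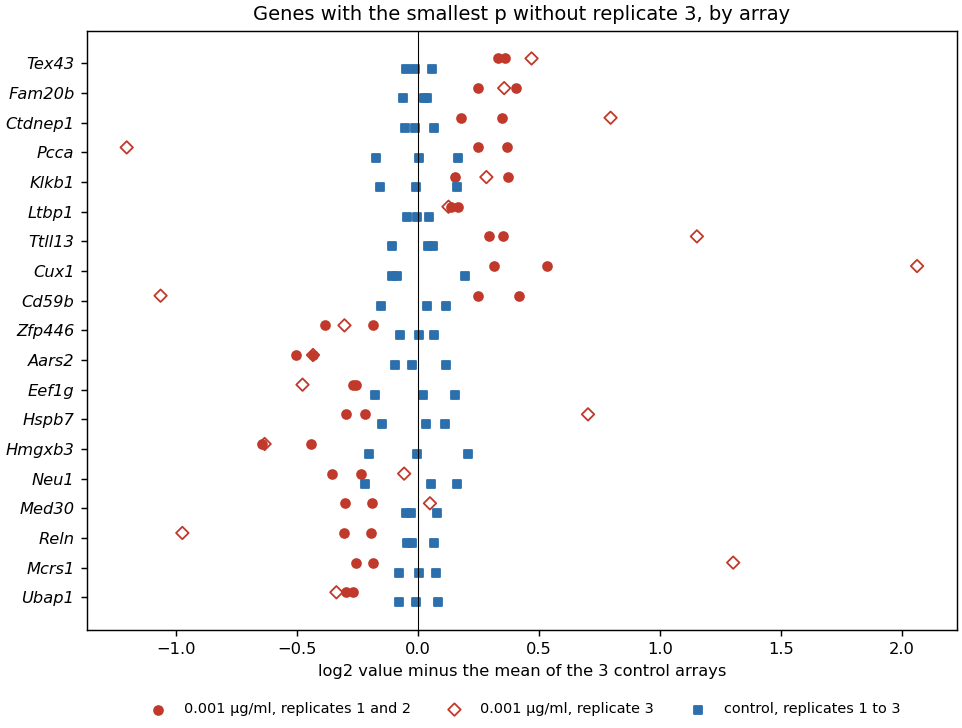
Log2 value minus the mean of the 3 control arrays at 1 month (horizontal axis) for the named genes with the smallest p without replicate 3, Abhd16a left out for its range. Red circles are replicates 1 and 2 of 0.001 µg/ml, open red diamonds replicate 3 and blue squares the 3 controls; replicate 3 of Cux1 and Mcrs1 lies far right of its group and that of Pcca and Cd59b far left.

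Abhd16a (chromosome 17), a phosphatidylserine lipase gene, had the largest difference among the named genes. It was at 11.10, 10.36 and 8.26 in 0.001 µg/ml, against 7.79, 7.84 and 7.78 in control. The difference was 2.92 ± 0.71 without replicate 3 and 2.10 ± 0.70 with it (adjusted p = 1 and 0.15). Fitted with the arrays of 1 month alone, and replicate 3 left out, the same difference had a standard error of 0.30 and an adjusted p of 0.00534. This probe has low and high arrays throughout the series, with 8 of 46 arrays under 8.5 and 30 over 10, and the 11 arrays of the 4 higher concentrations at 1 month lay between 10.1 and 11.33. The 3 controls of 1 month were thus the ones that stood apart from the arrays of the same time, together with replicate 3.

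Set against those 11 arrays, the 29 probes named with or without replicate 3 fell into few patterns. In 7 of them replicates 1 and 2 of 0.001 µg/ml lay outside the range of the higher concentrations, in 1 (Abhd16a) the controls did, and in 21 neither did. These probes were named for a small p between 0.001 µg/ml and control, and the same count over all probes was not made. Lying wholly outside a range is also easier for 2 arrays than for 3, so the counts describe only these 29 probes. Fam20b at 0.001 µg/ml was above the 8.46 to 8.85 of the higher concentrations, and Hmgxb3 and Reln were below theirs, which ran from 9.83 to 10.39 and from 8.76 to 9.05. Tex43 at the higher concentrations ran from 12.48 to 13.00, a range that overlaps that of both groups. Its overlap with the controls came from 1 array of 0.01 µg/ml, at 12.48. Against control, Tex43 gave 0.14 ± 0.08 at 0.01 µg/ml and 0.34 ± 0.09 at 0.1 µg/ml. At 1 and 10 µg/ml it gave 0.36 ± 0.08 and 0.40 ± 0.08 (limma adjusted p = 0.0112 and 0.0147). The brighter of 2 probes of Ubb-ps, annotated as a pseudogene of the polyubiquitin gene Ubb, was at 14.13, 13.96 and 14.25 in 0.001 µg/ml, against 13.55, 13.83 and 13.79 in control, and the other concentrations of 1 month lay from 14.09 to 14.45. Its difference was 0.39 ± 0.11 with replicate 3 and 0.32 ± 0.12 without it (adjusted p = 0.15 and 1). The other probe was at 13.75, 13.47 and 13.75 in 0.001 µg/ml, against 13.30, 13.68 and 13.61 in control, so its groups overlapped, with differences of 0.13 ± 0.11 and 0.08 ± 0.12. Transcripts of Ubb and its pseudogene cannot be told apart from the annotation of these probes. The comparisons of all concentrations at 1 month share the same 3 controls.

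**Figure D4:**
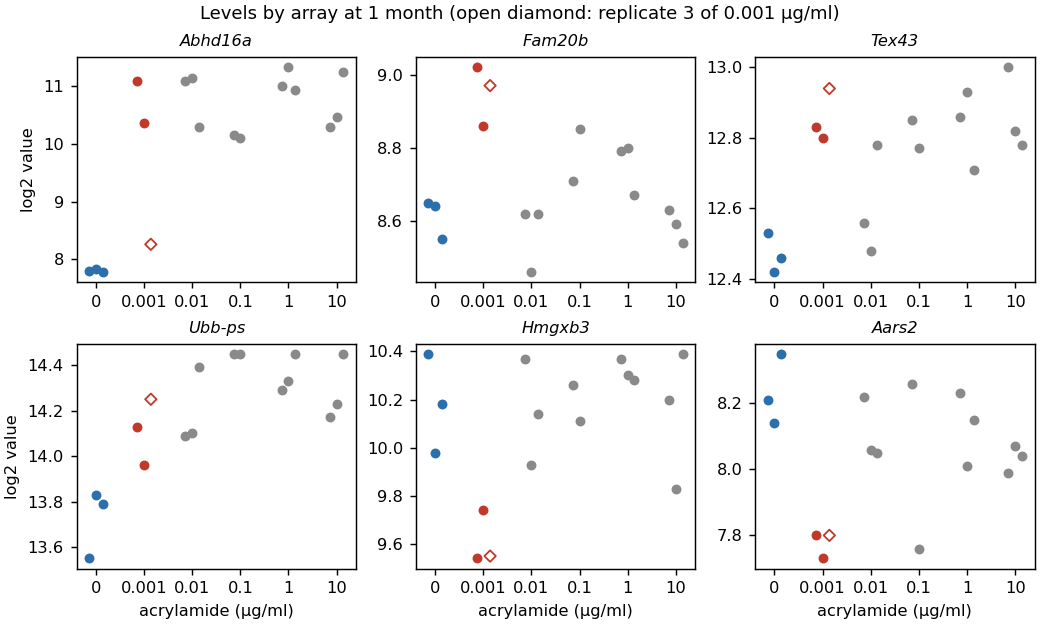
Log2 value on each array of 1 month (vertical axes, not starting at 0) against the acrylamide concentration in µg/ml (horizontal axes, in order and not to scale), for 6 genes. Blue points are controls, red points 0.001 µg/ml with replicate 3 as an open diamond, grey points the higher concentrations; Abhd16a and Ubb-ps are lowest in the 3 controls, and Hmgxb3 is lowest in 0.001 µg/ml.

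Genes of germ cell stages had differences near 0. None of the 14 spermatogonial, 19 spermatocyte, 23 round spermatid and 20 elongating spermatid genes tested was called with or without replicate 3. Without it their median differences were -0.01, -0.04, 0.02 and 0.06, beside a median of -0.002 over all probes tested. Pgk2, the glycolytic kinase gene that spermatocytes switch on, was at 13.93, 13.67 and 13.61 in 0.001 µg/ml, against 14.09, 14.01 and 13.97 in control. The groups did not overlap, and the difference was -0.22 ± 0.09 without replicate 3 (adjusted p = 1). Spaca1, which encodes a sperm acrosome membrane protein, gave 0.28 ± 0.13 and Spata19, which encodes a mitochondrial protein of sperm, gave 0.20 ± 0.08. Spata19 in replicate 3 was at 12.95, below every other array. Among the germ cell markers, the probe of Sycp3 was among the dimmest on the array, and the other 8 markers with a probe were bright. Tnp1, a transition protein gene, was at 13.75, 13.64 and 12.50 in 0.001 µg/ml, against 13.29, 13.84 and 13.76 in control, and Prm1 was at 13.71, 13.60 and 14.11, against 13.40, 13.64 and 13.61. In both genes replicates 1 and 2 lay within or beside the spread of the controls.

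Somatic cell genes gave no call either. The 24 Sertoli cell genes tested had a median difference of -0.08 without replicate 3, with 6 below and 2 above all controls, beside 10.7% below and 9.89% above over all probes. Sparc, a matricellular protein gene, was at 10.99, 10.93 and 11.97 in 0.001 µg/ml, against 11.27, 11.48 and 11.00 in control, and Clu, the clusterin gene, was at 12.92, 12.97 and 13.53, against 13.08, 13.26 and 13.03. Of the 17 Leydig cell and steroidogenesis genes, 5 were above all controls and 0 below (all probes 9.89% and 10.7%), with a median difference of -0.02. The 5 included the kallikrein genes Klk1b24 and Klk1b27, which Leydig cells of the mouse express. Klk1b24 was at 9.31, 10.04 and 9.17 in 0.001 µg/ml, against 9.00, 8.92 and 8.90 in control, a difference of 0.73 ± 0.46 without replicate 3. Klk1b27 gave 0.89 ± 0.73, and replicate 3, at 9.23, was below the controls. The steroid enzyme gene Cyp17a1 was at 13.15, 13.52 and 12.46 in 0.001 µg/ml, against 13.16, 13.63 and 13.53 in control.

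Markers of cells from outside the tubules varied between single testes. Hba-a1, a haemoglobin gene, was at 10.06, 10.51 and 12.48 in 0.001 µg/ml, against 9.49, 12.45 and 9.22 in control, so that each group held 1 high array. In 0.001 µg/ml that array was replicate 3, so without it only the control group held a high array. H2-Ab1, a class II antigen presentation gene, was at 8.24, 8.19 and 8.47 in 0.001 µg/ml, against 9.27, 8.21 and 9.40 in control, of which 2 were high. The means of the 5 epididymis markers with a probe were near the dim end of the array, at 7.72, 7.72 and 7.77 in 0.001 µg/ml, against 7.70, 7.71 and 7.72 in control. Whether the blood content of single testes had a part in any difference was not tested.

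Genes of acrylamide metabolism and of the responses to it showed no called difference. Cyp2e1, which encodes the enzyme that makes glycidamide, was too dim for the test, at 7.91, 7.71 and 7.73 in 0.001 µg/ml, against 7.71, 7.69 and 7.79 in control. In the fit over all probes its difference was 0.05 ± 0.06 with replicate 3 and 0.08 ± 0.07 without it. Of 24 genes of xenobiotic metabolism tested, 0 were called, and 5 were above and 3 below all controls without replicate 3 (all probes 9.89% and 10.7%). The glutathione transferase gene Gstt2 was at 9.09, 9.10 and 9.93 in 0.001 µg/ml, against 9.06, 8.87 and 8.79 in control, and Mgst1 was at 10.21, 10.17 and 9.92, against 9.77, 9.94 and 9.99. Of 32 genes of oxidative stress and NRF2, 3 were above and 5 below, again beside 9.89% and 10.7% of all probes. Srxn1, which encodes the sulfiredoxin that repairs peroxiredoxins, was at 9.64, 9.73 and 10.33 in 0.001 µg/ml, against 9.22, 9.42 and 9.25 in control. Its groups did not overlap, with 0.39 ± 0.22 without replicate 3 (adjusted p = 1), and Txnrd1 gave 0.08 ± 0.04.

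No gene of the DNA damage lists was called. The 25 p53 targets tested had differences from -0.08 to 0.19 and a median of 0.01 without replicate 3. The 29 excision repair genes ran from -0.19 to 0.21, with 4 above and 3 below all controls (all probes 9.89% and 10.7%). With all 6 arrays, 1 was above and 3 were below (all probes 4.49% and 5.01%). Ercc3, a helicase gene of nucleotide excision repair, was at 11.09, 11.02 and 9.36 in 0.001 µg/ml, against 11.35, 11.22 and 11.17 in control, and Parp1, which senses strand breaks, was at 10.45, 10.57 and 10.39, against 10.74, 10.64 and 10.67. For both, all treated testes were below all controls, and the differences without replicate 3 were -0.19 ± 0.10 and -0.17 ± 0.13 (adjusted p = 1). Mbd4 went the other way, at 8.79, 8.60 and 9.09 in 0.001 µg/ml, against 8.59, 8.55 and 8.58 in control. Without replicate 3 its difference was 0.12 ± 0.09, and that of Ercc8, whose groups overlapped, was 0.21 ± 0.12. Of 27 heat shock and unfolded protein response genes, 3 were above and 0 below all controls (all probes 9.89% and 10.7%). The 16 interferon response genes included Mx2, with 0.14 ± 0.05, and Stat2, with -0.09 ± 0.04, both close to the dim end. Immediate early genes, which can move during dissection, had a median of 0.02. Egr1 was at 8.78, 8.52 and 7.85 in 0.001 µg/ml, against 8.95, 8.36 and 9.23 in control.

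Among genes of metabolism and transport, 18 cholesterol synthesis genes had a median difference of 0.01 without replicate 3. Its positive end held Msmo1 (0.46 ± 0.37), Cyp51 (0.31 ± 0.15) and Fdps (0.29 ± 0.14), which encode enzymes of sterol demethylation and of the farnesyl diphosphate step. Fdps was at 11.09, 11.21 and 11.08 in 0.001 µg/ml, against 11.06, 10.69 and 10.84 in control, without overlap. Of 41 kinesin and dynein genes, 5 were above and 6 below all controls (all probes 9.89% and 10.7%), with a median of 0.02, and Kif22, a chromosome-binding kinesin gene, gave -0.22 ± 0.10. The 51 cytosolic ribosomal protein genes had a median of 0.01, with 5 above and 4 below all controls, beside the same shares of all probes. Rps2 gave -0.53 ± 0.23, Rpl30 -0.52 ± 0.23 and Rps27 0.24 ± 0.11. Many ribosomal protein genes have near-identical processed copies, so their probes may read more than 1 gene. In 68 respiratory chain and ATP synthase genes the median was 0.00, and in 31 proteasome genes -0.05.

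In replicate 3 some lists lay farther from replicates 1 and 2 than the groups lay from each other without it. Its median difference from replicates 1 and 2 was -0.50 over the proteasome genes, of which 17 were below and 4 above the range of the other 45 arrays. It was -0.63 over the heat shock and unfolded protein response genes, with 12 of 27 below and 7 above. Over the brightest class of probes the median was -0.43, with 50.1% below and 23.2% above. Over the next class it was -0.14, with 40.8% below and 30.5% above. The genes of these lists were not sorted into such classes, so their counts were not compared with probes of their own level. The 51 cytosolic ribosomal protein genes split evenly, 19 above and 19 below. With replicate 3 in the fit, the proteasome median against control became -0.23.

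**Figure D5:**
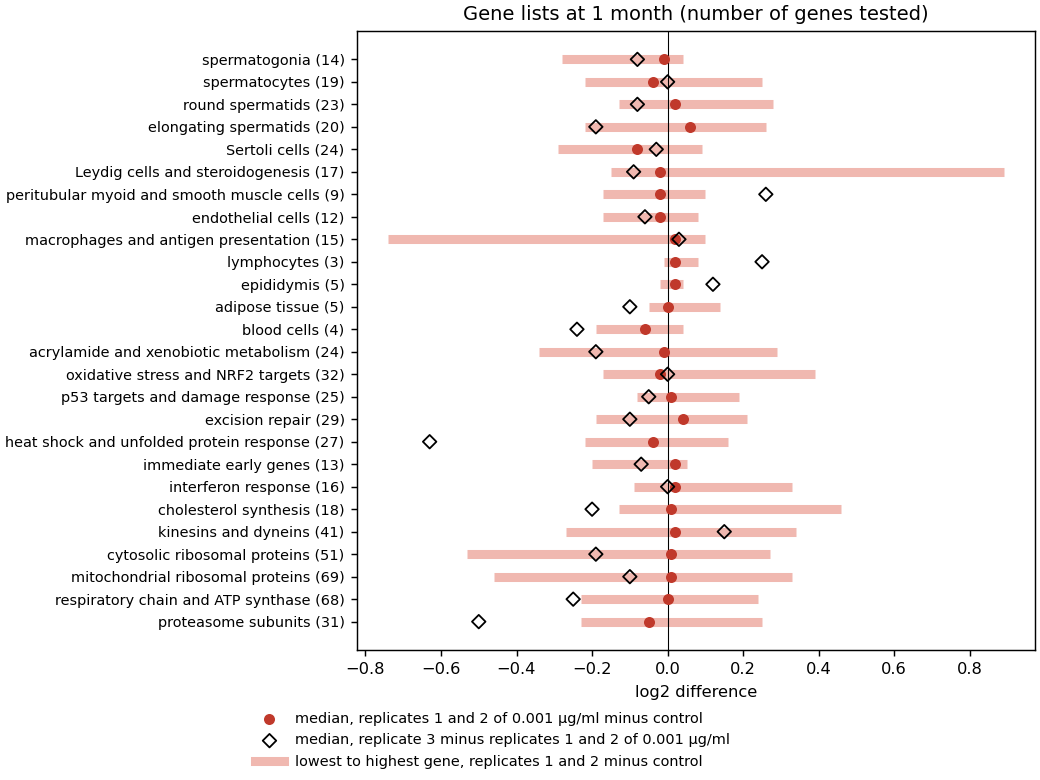
Log2 differences (horizontal axis) for the 26 gene lists with at least 3 genes tested, with the number of genes in brackets. Red points are list medians of replicates 1 and 2 of 0.001 µg/ml minus control, at -0.08 to 0.06, pale bars their lowest to highest gene, and open diamonds the median of replicate 3 minus replicates 1 and 2, lowest at -0.63.

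The difference at 1 month was also set against that at 6 months, where 3 arrays of 0.001 µg/ml, from mice aged 11 to 12 months, stand against 3 controls. The test of the difference of differences, without replicate 3 of 1 month, called 0 of 15418 probes (smallest adjusted p = 0.779, with 304 probes at an unadjusted p under 0.05, 1.97%). At 6 months alone limma called 0 probes, with 287 at an unadjusted p under 0.05 (1.86%). At 12 months, with 2 arrays in each group from mice aged 16 to 17 months, it called 23 probes (0.149%, smallest adjusted p = 0.00157). There, 1871 probes had an unadjusted p under 0.05 (12.1%). Exposure time and age rose together across these groups. Fam20b had values of the same sign at both times. At 6 months it was at 8.94, 9.12 and 9.02 in 0.001 µg/ml, against 8.54, 8.64 and 8.62 in control, a difference of 0.42 ± 0.08 (adjusted p = 0.108), and at 12 months the difference was 0.03. Its 1 month difference minus its 6 month difference was -0.10 ± 0.12. At 6 months the Fam20b means of the higher concentrations, 8.79 to 8.98, also lay above the control mean of 8.6. The control mean at 12 months was 9.01. Tex43 gave 0.01 ± 0.08 at 6 months and -0.05 at 12 months. Its control means were 12.47, 12.71 and 12.73 at 1, 6 and 12 months, and its means in 0.001 µg/ml were 12.86, 12.72 and 12.68. Lancl1, which encodes a glutathione-binding protein, had the smallest p in this test, with 0.36 ± 0.17 at 1 month and -0.70 ± 0.15 at 6 months (adjusted p = 0.779 for the difference between the times). The same quantity was 0.60 for Rpap1 and 0.58 for Cd59b on the positive side, and -1.09 for Dapp1, -0.42 for Eef1g and -0.42 for Reln on the negative side. That of Dapp1 came from single high arrays of a dim probe. The controls at 1 month were at 7.68, 8.46 and 8.57, and 0.001 µg/ml at 6 months was at 8.48, 7.78 and 8.56. Its means were 7.74 in 0.001 µg/ml at 1 month and 7.71 in the controls at 6 months.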

How the data were processed

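The authors deposited processed values on the log2 scale, made with lumi per the submitters' processing notes, with version and settings not given in the sources used here. The authors also deposited non-normalized bead intensity values on a linear scale. Only 12 of 45 intensity columns matched their probe names (rank correlation with the log2 values at least 0.99995), and 33 did not (at most 0.0122), so all results rest on the log2 values, and the 12 columns served as an alternative. A further 1 column could not be tied to a sample by its name and was not used. Genes come from the platform annotation: 23978 probes carried 1 symbol and 1719 carried no symbol. Chromosomes are RefSeq's, without positions, since the files name no build.

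Probes with a mean log2 value under 7.76 (40% of them) were dropped, which kept 15418. These were fitted with limma (version 3.58.1, in R 4.3.3), with a mean for each of 18 groups of dose and time and a shared spread, two-sided, with Benjamini-Hochberg adjustment over all probes and a threshold of 0.05. Replicate 3 of 0.001 µg/ml was kept in 1 fit and left out of the other. The script was tested on simulated data, with levels and spread taken without replicate 3. That test held no array that departs as replicate 3 does, so it does not cover the fit that keeps it. The number of arrays limits the precision.

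Named genes are the 10 with the smallest p in each direction in each fit (3 in each for the change between times), up to 4 of each list by p without replicate 3, Cyp2e1, and the 12 probes of replicate 3 farthest above and below the other arrays. A list gene was read by its brightest probe. Those outside this rule that were chosen after their values were seen are Ubb-ps as a gene followed across concentrations, markers quoted for replicate 3 and genes called under an alternative. Members, lists and rules were chosen with earlier results of these data known. The labels give no slide; sets of 8 consecutive array numbers were assumed as a candidate batch, and all 6 arrays (numbers 1 to 6) fall in the first such set. At equal replicate numbers the deviations from the group means correlated at -0.006, -0.083 and -0.043. The mean of 0.001 µg/ml included replicate 3, whose departure dominates the deviations of that group. These correlations therefore cannot decide whether the arrays were paired.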

Additional observations from a re-analysis of the deposited data

How the results depend on the processing

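The count of called probes was 0 at 1 month, with and without replicate 3, and for the difference between 1 and 6 months. With all 6 arrays it was 7 with limma's array weights, which gave replicate 3 of 0.001 µg/ml a weight of 5.252e-05, 1 with the assumed sets of 8 array numbers as a term (Ubb-ps, adjusted p = 0.0425) and 1 from the intensities (Dapp1, -1.36). Leaving out single arrays gave 0 to 5019: 4631 without replicate 1 and 5019 without replicate 2 of 0.001 µg/ml, and 1 without replicate 1 of the control (C8b). Without replicate 3 the count was 5 with array weights (Fam20b, Abhd16a, Tex43, Aars2 and Zfp446), 1 with the arrays of both groups alone (Tfb1m, 0.96), 1 with those of 1 month alone (Abhd16a) and 2 from the intensities (Abhd16a, 3.74, and Dapp1, -1.40), and leaving out single arrays gave 0 each time. The intensities lack replicate 1 of the control, in which Dapp1 was at 7.68, against 8.46 and 8.57 in the other controls. The cause of these changes was not tested. The count stayed at 0 with no filter or a stricter filter on dim probes, a trended robust prior and cyclic loess, and for that difference under every alternative run, which included keeping replicate 3. With the replicate number as a block, 0 probes were called both with and without replicate 3, with 3887 and 283 at an unadjusted p under 0.05, so the block changed no call. No named gene changed sign under the alternatives of its own fit, but keeping replicate 3 turned the sign of several named without it, among them Pcca, Cd59b, Hspb7 and Mcrs1. Precision is limited by 2 or 3 arrays in the treated group, and values near 7.7 carry little signal over background.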

Other observations

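Some genes differed between single testes of both groups far more than between the groups. Over the 5 arrays without replicate 3 of 0.001 µg/ml, the median range of a named probe was 0.144 log2 units, and 50 of 14177 (0.353%) ranged over more than 1. Pga5, a pepsinogen gene, was at 7.73 and 10.51 in replicates 1 and 2 of 0.001 µg/ml, against 10.50, 7.67 and 7.70 in the controls. Mff, which encodes a receptor of mitochondrial fission, was at 9.59 and 7.82 in 0.001 µg/ml, against 9.59, 7.82 and 7.87 in control. Cops8, a COP9 signalosome subunit gene, was at 7.94 and 9.40 in 0.001 µg/ml, against 7.91, 9.41 and 9.26 in control. In these 3 genes each group held both a low and a high testis. Spo11, which makes the breaks of meiotic recombination, was at 9.56 and 9.60 in 0.001 µg/ml, against 10.19, 8.19 and 9.60 in control.

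Tfb1m, which encodes a mitochondrial ribosomal RNA methyltransferase, was at 8.74, 8.75 and 7.64 in 0.001 µg/ml, against 7.80, 7.79 and 7.75 in control. This probe had low and high arrays in other groups too. It was at 7.75, 7.80 and 8.78 in 0.01 µg/ml at 1 month. In the controls it was at 7.82, 8.81 and 7.72 at 6 months and at 8.42 and 8.55 at 12 months. C8b, a complement gene, was at 9.33, 8.73 and 10.37 in 0.001 µg/ml, against 9.24, 8.01 and 8.02 in control.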
